A study of Homo sapiens and Mus musculus with 19 samples.

Results

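The complement and acute-phase genes examined here were C3, CFB, C1S, C1R, PTX3, SAA1, SAA2, LCN2 and SERPINA1, together with their mouse counterparts and mouse Saa3. They were chosen with earlier results of these data known, so counts set beside all features describe these genes and are no independent test. Their probe sets were taken by symbol, as every probe set annotated to one of these genes. This gave 14 human probe sets, of which 2 name several genes, one both SAA1 and SAA2 and the other SAA1, SAA2 and the SAA2-SAA4 readthrough gene. With the brightest probe set standing for each gene and each joint annotation kept as a feature of its own, there were 9 human features of 20875 in all. In mouse there were 17 probe sets, 3 of them naming several genes, and 14 features of 18828. The features shared by SAA1 and SAA2 cannot tell these near-identical genes apart and are called SAA1/SAA2 and SAA1/SAA2/SAA2-SAA4.

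The study set the transcriptomes of lung cancer cells with raised and lowered NF-kB activity side by side. Each of 5 human lines derived from lung cancers, A549, H23, H358, HCC827 and PC9, grown in RPMI, was transduced with 3 retroviruses and gave 1 array per line and virus. Mouse Lewis lung carcinoma cells, titled LLC-kB OVA and called LLC here, grown in DMEM, carried 2 of the viruses with 2 arrays each. The IKKb virus carried an activated IKKβ, in which 2 serines are replaced by glutamates, and the IkB_SR virus carried the IkBα super-repressor, in which 2 serines are replaced by alanines. The MiG virus was the empty vector, so all groups carried a retrovirus and its green fluorescent protein, and all cells had been sorted on that fluorescence. Every group is a transduced, sorted pool of an established line, and the labels do not explain the kB OVA term that all 4 mouse arrays share.

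Complement is a cascade of plasma proteins that marks particles for uptake and lyses membranes. The C1r and C1s proteases open its classical arm, C3 is the component on which all arms converge, and factor B, the product of CFB, forms the convertase of the alternative arm. Acute-phase proteins, among them the serum amyloids and α1-antitrypsin (SERPINA1), are made mainly by the liver under interleukin-1 and interleukin-6, and epithelia can make many of them locally. PTX3 is a long pentraxin that binds microbes and C1q, and lipocalin-2 (LCN2) withholds iron from bacteria by binding their siderophores. NF-kB, the transcription factor freed when IKKβ marks IkBα for destruction, is a known activator of several of these genes.

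Epithelial carcinoma markers were above the 40th percentile of their array for at least 7 of 9 genes on every human array. Hepatocyte markers, which matter because the liver is the main source of these proteins, summed to 214 to 431 with IKKb, 93.4 to 450 with IkB_SR and 173 to 438 with MiG. Each of the 15 human arrays correlated better with the arrays of its own line, at 0.958 or more, than with any other line, at 0.891 or less. With IKKb, NFKBIA was 3.91 times the MiG signal in H358 and 3.34 times in HCC827. In A549, H23 and PC9 it was 1.16, 1.07 and 1.17 times the MiG signal with IKKb. NFKBIA, whose product IkBα is encoded by the super-repressor virus, was 1.60 to 7.08 times the MiG signal on 4 of the IkB_SR arrays. A raised NFKBIA signal was thus not confined to IkB_SR arrays. On the array labelled H23 IkB_SR it was 0.782 of MiG, so this array went against its label in that respect, and IKKb to IkB_SR fold changes of the genes below are also given without H23. The H358 IKKb array stood apart from the other H358 arrays in its Dap spike-in signal, 2220 against 611 with IkB_SR and 628 with MiG. Its actin 3′ to 5′ ratio also differed, at 1.74 against 1.38 and 1.41. The Dap signal of the H23 arrays, at 2120 to 2516, was similar to that of H358 IKKb. Fold changes between IKKb and IkB_SR are likewise given without the H358 IKKb array. Counts over lines, and the comparisons with MiG, hold both arrays. The comparisons with MiG also hold the PC9 MiG array, whose Dap signal was 1497, against 2519 with IkB_SR and 2716 with IKKb in that line. The 40th percentile, used as the lower limit of measurement, lay between 28.7 and 45.0 on the human arrays.

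The start-site windows of 5 of the 9 genes were found among RefSeq promoters of build GRCh38.p14, each running from 250 bases before to 50 bases after the transcription start. The windows of CFB, PTX3 and LCN2 are printed because each holds a match to the kB consensus, the sequence NF-kB dimers are known to bind, and the first pair belong to genes that passed the test below. The motifs and the LCN2 window were chosen with the values and sequences in view. Capitals mark the kB matches and, in CFB, also an interferon-response form (TTTC repeated after a gap of 2 bases) and a TTCNNNGAA match.
CFB, chr6:31945845-31946144, + strand: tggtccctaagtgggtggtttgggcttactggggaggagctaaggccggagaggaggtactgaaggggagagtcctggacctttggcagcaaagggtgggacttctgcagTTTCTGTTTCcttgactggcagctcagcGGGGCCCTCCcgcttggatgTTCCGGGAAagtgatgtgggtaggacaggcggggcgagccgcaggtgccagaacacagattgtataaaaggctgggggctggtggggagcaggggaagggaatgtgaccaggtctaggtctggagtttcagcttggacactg
PTX3, chr3:157436600-157436899, + strand: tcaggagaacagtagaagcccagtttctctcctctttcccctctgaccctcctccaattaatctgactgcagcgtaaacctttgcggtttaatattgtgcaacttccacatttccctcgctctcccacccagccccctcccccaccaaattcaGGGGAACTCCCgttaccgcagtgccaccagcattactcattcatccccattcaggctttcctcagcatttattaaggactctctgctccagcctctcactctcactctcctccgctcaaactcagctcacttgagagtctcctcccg
LCN2, chr9:128149203-128149502, + strand: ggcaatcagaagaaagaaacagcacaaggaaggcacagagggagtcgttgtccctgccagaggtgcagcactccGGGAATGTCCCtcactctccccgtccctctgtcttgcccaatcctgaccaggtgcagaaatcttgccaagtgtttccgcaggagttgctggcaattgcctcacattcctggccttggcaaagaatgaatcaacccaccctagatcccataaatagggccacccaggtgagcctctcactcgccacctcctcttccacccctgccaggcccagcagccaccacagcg

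In CFB the kB match began 112 bases before the start, the interferon-response form 140 bases before it and the TTCNNNGAA match 92 bases before it. In PTX3 overlapping kB matches on both strands ran from 97 to 87 bases before the start, and in LCN2 the match, on the minus strand, ran from 175 to 166 bases before it, with 1 more base in capitals from an overlapping kB form. Over all 35116 windows of this length, searched on both strands, 11.3% held the kB consensus, 3.57% the interferon-response form, and 7.66% TTCNNNGAA, the STAT form, which 1 C1R window also held. TTGCNNAA, a C/EBP form held by 10.5% of windows, was present in the PTX3, LCN2 and C1R windows. The 2 SERPINA1 windows held none of these letters, nor did either C1R window hold the kB consensus. These matches describe the sequence and show no binding.

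Between the IKKb and the IkB_SR arrays, 3 of the 8 features that passed the filter on low signals were past the threshold, C3, CFB and PTX3, and all 3 were higher with IKKb. Over all 16035 human features tested in this comparison, 0.911% passed, 0.599% as higher and 0.312% as lower with IKKb (limma, Benjamini-Hochberg adjusted p under 0.05). The median log2 fold change of the 8 features was 1.80, against -0.01 over all features. At an unadjusted p under 0.05 there were 6 of the 8 features, against 14.1% of all. C1S and both serum amyloid features reached the filter's 5 arrays only with their IKKb arrays counted. They enter the median and the 6 partly because IKKb was high, so these figures are not independent of the comparison. In bulk arrays, fewer cells making a transcript and less transcript per cell cannot be told apart. The p-values and SEs rest on the residual spread of all 15 human arrays, moderated by limma, with 1 array per line and virus. They are not taken from the spread of the 5 within-line differences. The SD of those differences was 1.58 for C3, 1.27 for CFB and 2.37 for PTX3. The ninth feature, SERPINA1, was above the 40th percentile on 4 arrays, 1 fewer than the filter asks, and was not tested with the others.

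C3 was higher with IKKb than with IkB_SR in every line. Its signal with IKKb was 1993 in A549, 147 in H23, 429.6 in H358 cells, 4328 in HCC827 and 2684 in PC9. With IkB_SR it was 762, 89.3, 64.8, 151 and 926 in the same order of lines, and with MiG 1015, 121, 82.8, 663 and 1620.5. Of all features tested 4.56% were higher with IKKb than with IkB_SR in 5 of 5 lines, as were, in their numbers, 4 of the 8 here (C3, CFB, C1S and SAA1/SAA2). Of these, C3 alone had a measured order in every line. Both signals lay below the lower limit of measurement for CFB in H23, for C1S in H358 and for SAA1/SAA2 in A549 and H23. For C3, IKKb was the highest and IkB_SR the lowest of the 3 arrays in 5 of 5 lines, although the signals of the groups overlap because the lines start from different levels. The IKKb to IkB_SR log2 fold change was 2.14 ± 0.40 (SE, n = 5 lines, limma adjusted p = 0.0276), a 4.40-fold difference. HCC827 showed a 28.7-fold difference and H23 a 1.65-fold one. Without H23 the log2 fold change was 2.51 (limma adjusted p = 0.0268), and without the H358 IKKb array it was 1.99 and missed the threshold (limma adjusted p = 0.0562). Without HCC827 it was 1.495 and still passed (limma adjusted p = 0.0402). Leaving out A549, H358 or PC9 as a whole also ended the call, at adjusted p-values of 0.0545, 0.0751 and 0.0955, with log2 fold changes of 2.33, 2.06 and 2.29.

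CFB, whose product pairs with C3b in the alternative convertase, had its largest signal in HCC827. With IKKb it reached 126 in A549, 13.7 in H23, 186 in H358 cells, 1785 in HCC827 and 239 in PC9. With IkB_SR the same lines gave 59.2, 4.77, 75.8, 162 and 18.7, and with MiG 63.7, 22.5, 92.5, 431 and 61.4. All 3 H23 arrays lay below the 40th percentile, so CFB has no measured order there, and in the other 4 lines IKKb was highest and IkB_SR lowest. The IKKb to IkB_SR log2 fold change was 1.76 ± 0.36 (SE, n = 5 lines, limma adjusted p = 0.0354), or 3.38-fold. It was 11.04-fold in HCC827, at least 7.21-fold in PC9, where the IkB_SR signal was below the 40th percentile and that percentile stands in for it, and 2.45-fold in H358. The log2 fold change was 2.07 without H23 (limma adjusted p = 0.0268) and 1.85 without the H358 IKKb array (limma adjusted p = 0.0485). Without A549, H358, HCC827 or PC9 the adjusted p was 0.0551, 0.0641, 0.179 and 0.187, with log2 fold changes of 1.97, 1.91, 1.36 and 1.48. With the mean of its probe sets in place of the brightest, the log2 fold change was 1.06. The second CFB probe set lay below the 40th percentile on all 15 arrays, at 1.99 to 23.6.

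**Figure D1:**
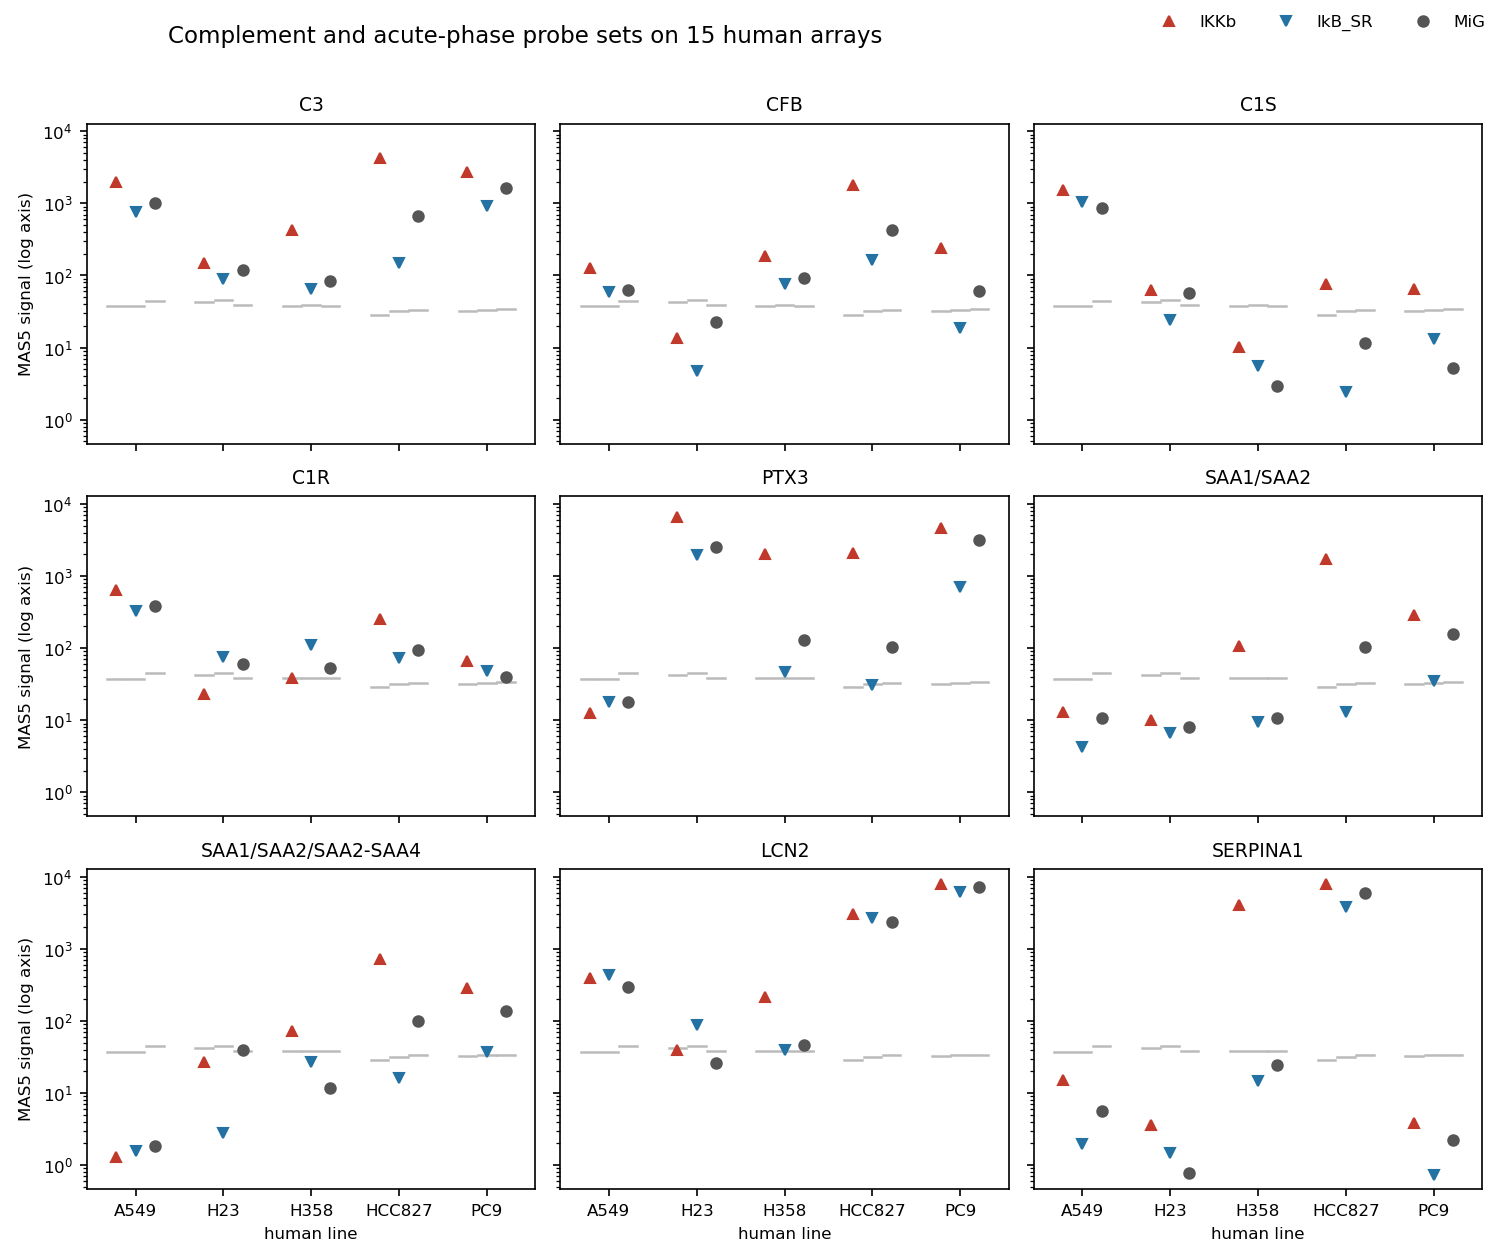
MAS5 signal (log axis) of the 9 human features in each line with IKKb, IkB_SR and MiG, 1 array per point, with grey bars at the array's 40th percentile. C3 follows the order IKKb, MiG, IkB_SR in 5 of 5 lines, while C1R and LCN2 do so in 2.

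The initiating proteases C1S and C1R, whose genes are neighbours in the RefSeq order, did not pass in this comparison. C1S gave 1527 in A549, 62.5 in H23, 10.1 in H358 cells, 76.0 in HCC827 and 64.2 in PC9 with IKKb, and 1046, 24.3, 5.63, 2.42 and 13.1 with IkB_SR. The MiG signals were 873, 57.9, 2.94, 11.5 and 5.18. A549 stood far above the other lines with every virus, and in H358 all 3 arrays were below the 40th percentile. The C1S log2 fold change, IKKb over IkB_SR, was 1.11 ± 0.30, positive in 5 of 5 lines, which did not pass (SE, n = 5 lines, limma adjusted p = 0.108). It was 1.15 without H23 and 1.28 without the H358 IKKb array (limma adjusted p = 0.177 and 0.0844). A second C1S probe set was below the 40th percentile on 12 of 15 arrays.

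C1R had signals of 633 in A549, 23.2 in H23, 38.3 in H358 cells, 255 in HCC827 and 66.9 in PC9 with IKKb. With IkB_SR they were 326, 76.3, 111, 74.2 and 48.2, and with MiG 384, 61.1, 53.6, 93.7 and 40.2. The lines went in opposite directions. HCC827 was 3.43-fold and A549 1.94-fold higher with IKKb than with IkB_SR, while in H358 the IKKb signal was 0.345 of the IkB_SR signal and in H23 at least 1.80-fold lower. Both lower values rest on weak IKKb signals. The H358 one lay barely above its array's 40th percentile of 38.2, and the H23 one below its own. The overall log2 fold change was 0.08 ± 0.35, with a 95% interval from -0.66 to 0.83 (limma adjusted p = 0.947, n = 5 lines). It turned negative without A549, at -0.13, and without HCC827, at -0.29, and was 0.41 without H23 and 0.32 without the H358 IKKb array.

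PTX3, the long pentraxin, showed the widest differences among the features that passed. Its signal with IKKb was 12.5 in A549, 6641 in H23, 1998 in H358 cells, 2109 in HCC827 and 4608 in PC9. With IkB_SR it was 18.1, 1966.5, 47.0, 31.0 and 705, and with MiG 17.8, 2569, 131, 102.5 and 3165. All 3 A549 arrays lay below the 40th percentile, and in each of the other 4 lines IKKb was highest and IkB_SR lowest. The IKKb to IkB_SR log2 fold change was 2.93 ± 0.63 (SE, n = 5 lines, limma adjusted p = 0.0439), or 7.64-fold, with a range over lines from -0.26 in A549 to 5.50 in HCC827. In HCC827 the IkB_SR signal was below the 40th percentile and the difference was at least 66.7-fold. H358 differed 42.5-fold, PC9 6.54-fold and H23 3.38-fold. The call was stronger without A549, with a log2 fold change of 3.73 (limma adjusted p = 0.0142). It was lost without H23, at 3.23 (limma adjusted p = 0.104), and without the H358 IKKb array, at 2.44 (limma adjusted p = 0.0933). The adjusted p also missed the threshold without H358, HCC827 or PC9, at 0.146, 0.192 and 0.158, with log2 fold changes of 2.42, 2.29 and 2.997.

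The serum amyloid features were measurable in HCC827 and PC9 with IKKb and MiG, in H358 with IKKb and, near the 40th percentile, in PC9 with IkB_SR and, for the SAA2-SAA4 feature alone, in H23 with MiG. SAA1/SAA2 had signals of 13.01 in A549, 10.1 in H23, 106 in H358 cells, 1726 in HCC827 and 290.4 in PC9 with IKKb. The IkB_SR signals were 4.21, 6.65, 9.34, 13.2 and 34.96, and those with MiG 10.8, 8.18, 10.6, 104 and 159. A549 and H23 were below the 40th percentile throughout, so the order IKKb, MiG, IkB_SR that the numbers follow in all 5 lines is a measured one only in HCC827 and PC9. HCC827 was at least 54.5-fold and PC9 8.31-fold higher with IKKb than with IkB_SR. The log2 fold change of 2.30 ± 0.60 did not pass (SE, n = 5 lines, limma adjusted p = 0.0973). It fell short of the threshold too without H23, at 2.82, without the H358 IKKb array, at 2.20, and without HCC827, at 1.39 (limma adjusted p = 0.0996, 0.186 and 0.252).

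The feature that also names SAA2-SAA4 gave 1.30 in A549, 26.6 in H23, 71.2 in H358 cells, 712 in HCC827 and 287 in PC9 with IKKb. With IkB_SR it gave 1.55, 2.81, 27.1, 15.9 and 37.4, and with MiG 1.84, 38.9, 11.5, 98.9 and 136. HCC827 and PC9 again carried the highest IKKb signals. Its IKKb to IkB_SR log2 fold change was 1.84 ± 0.50 (SE, n = 5 lines, limma adjusted p = 0.114), positive in 4 of 5 lines. Without H23, the H358 IKKb array or HCC827 it was 2.004, 1.86 and 1.17 (limma adjusted p = 0.179, 0.185 and 0.325). Transcripts of SAA1 and SAA2, which are adjacent genes, may both contribute to either feature.

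LCN2, the siderophore-binding lipocalin, was high in PC9 and HCC827 with every virus. Its signal was 392.5 in A549, 38.8 in H23, 216 in H358 cells, 3016 in HCC827 and 7819 in PC9 with IKKb. With IkB_SR the signals were 431, 88.5, 39.5, 2654 and 6106, and with MiG 299, 26.1, 45.7, 2366.5 and 7226. The differences between viruses were small beside those between lines, except in H358, where IKKb was 5.48-fold above IkB_SR and 4.73-fold above MiG, and in H23, where IKKb was at least 2.09-fold below IkB_SR and IkB_SR at least 2.31-fold above MiG, with the IKKb and MiG signals below the 40th percentile. The log2 fold change between IKKb and IkB_SR was 0.31 ± 0.30, with a 95% interval from -0.33 to 0.94 (limma adjusted p = 0.693, n = 5 lines). Without the H358 IKKb array it was -0.07, and without H23 0.62.

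The brightest probe set of SERPINA1, which encodes the elastase inhibitor α1-antitrypsin, was high in HCC827 with every virus and in H358 with IKKb alone. HCC827 gave 7988 with IKKb, 3819 with IkB_SR and 5944 with MiG. H358 gave 4023 with IKKb, 14.5 with IkB_SR and 24.1 with MiG, the last pair below the 40th percentile. On this probe set the H358 difference was at least 104-fold over IkB_SR and at least 105-fold over MiG, from 1 array per virus. In A549, H23 and PC9 the signals were 15.05, 3.55 and 3.85 with IKKb, 1.96, 1.45 and 0.737 with IkB_SR, and 5.63, 0.780 and 2.23 with MiG, all below the 40th percentile on this probe set. The gene's 3 other probe sets did not read alike. In H358 one gave 4590 with IKKb, 71.7 with IkB_SR and 86.3 with MiG, all above the 40th percentile, so that its ratios were 63.97 over IkB_SR and 53.2 over MiG, smaller than the bounds above. Another gave 169, 44.0 and 36.9, the last below the percentile, and was 3.85-fold higher with IKKb than with IkB_SR. The last gave 7.83, 20.4 and 1.39, all below the percentile. The first of these was above the percentile on all A549 and H23 arrays, at 49.0 to 66.1, and the next on all A549, H23 and PC9 arrays, at 38.2 to 91.4. Summed hepatocyte marker signal in H358 was 344 with IKKb, 352 with IkB_SR and 239 with MiG. The spike-in and actin values of the H358 IKKb array are given above, and their part in its LCN2 and SERPINA1 signals was not tested. With no filter, the log2 fold change of SERPINA1 between IKKb and IkB_SR was 1.86 ± 0.82 and did not pass (SE, n = 5 lines, limma adjusted p = 0.39). Without the H358 IKKb array, an alternative chosen after seeing the data, it was 0.58 (limma adjusted p = 0.372).

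Neither virus could be told from the empty vector at the threshold. Between IKKb and MiG, 0 of the 8 features passed, as did 0 of all 16035 (0%, limma), and at an unadjusted p under 0.05 there were 5 of 8 features, against 5.55% of all. Of these, C1S and SAA1/SAA2 passed the filter only with their IKKb arrays counted. The log2 fold changes were 1.36 ± 0.40 for C3, 1.01 ± 0.36 for CFB, 1.92 ± 0.63 for PTX3, 1.001 ± 0.30 for C1S and 1.42 ± 0.60 for SAA1/SAA2 (SE, n = 5 lines, limma adjusted p = 0.876 for each). C3, C1S, SAA1/SAA2 and LCN2 were higher with IKKb than with MiG in 5 of 5 lines, as were 3.31% of all features, with several of these line values below the 40th percentile. The log2 fold changes of the SAA2-SAA4 feature, LCN2 and C1R were 0.98, 0.63 and 0.25. Between IkB_SR and MiG, 0 of the 8 features and 0 of all 16035 passed (0%, limma), and 0 of 8 had an unadjusted p under 0.05, against 4.34% of all. Here the log2 fold changes were -0.78 ± 0.40 for C3, -0.74 ± 0.36 for CFB and -1.01 ± 0.63 for PTX3 (SE, n = 5 lines, limma adjusted p = 0.994 for each). C3, CFB and SAA1/SAA2 were lower with IkB_SR than with MiG in 5 of 5 lines, a property of 3.75% of all features tested, although the H23 values of CFB and the A549, H23 and H358 values of SAA1/SAA2 were below the 40th percentile. The comparisons share their arrays pairwise, so they are not independent of each other.

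**Figure D2:**
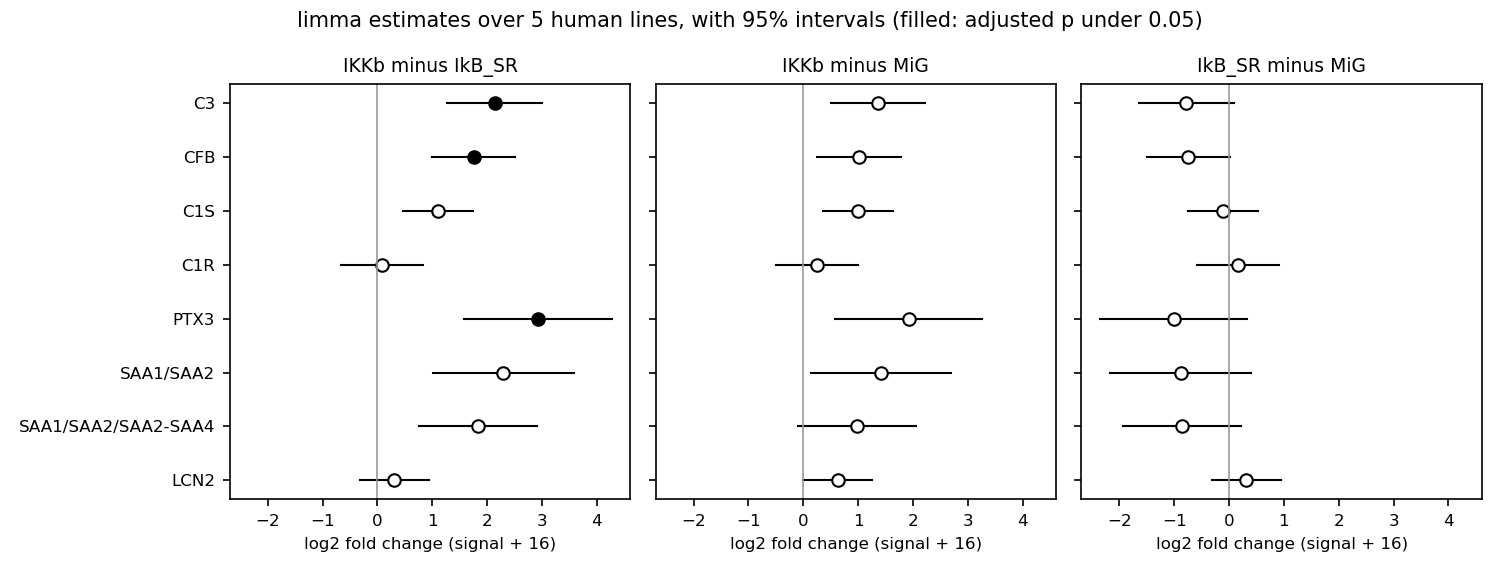
Log2 fold change (log2 of signal plus 16) of the 8 human features that passed the filter, in 3 comparisons over 5 lines, as limma estimates with 95% intervals. Filled points (C3, CFB and PTX3, IKKb minus IkB_SR) had an adjusted p under 0.05.

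The full order of IKKb above MiG above IkB_SR was met in all 5 lines by C3 and, in its numbers, by SAA1/SAA2. For SAA1/SAA2 it was a measured order only in HCC827 and PC9. All its A549 and H23 signals and its H358 signals with IkB_SR and MiG were below the 40th percentile. Over all features tested, 0.256% met it in 5 lines and 1.55% in at least 4. CFB, PTX3 and SERPINA1 met it in 4 of 5 lines, the exceptions being H23 for CFB and SERPINA1 and A549 for PTX3, all below the 40th percentile there. On the brightest SERPINA1 probe set all 3 arrays were above the percentile only in HCC827. C1R, C1S, LCN2 and the SAA2-SAA4 feature met it in 2 lines.

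The lines differed in how many features moved by at least 2-fold on the log2(signal + 16) scale. With IKKb over MiG, HCC827 had 7 of the 8 features at least 2-fold higher, H358 had 5, PC9 2, H23 1 and A549 0. The share of all features at least 2-fold higher was 2.86% in HCC827, 3.03% in H358, 1.6% in PC9, 2.54% in H23 and 0.973% in A549. LCN2 was the exception in HCC827, and C1S and CFB were the PC9 pair. The counts include C1S and both serum amyloid features, which passed the filter only with their IKKb arrays counted. The counts also take signals below the 40th percentile as measured. With that percentile in their place, C1S in PC9 and the SAA2-SAA4 feature in H358 were at least 1.90-fold and at least 1.86-fold higher, short of 2-fold. With IkB_SR over MiG, 5 features in HCC827 and 4 in PC9 were at least 2-fold lower, beside 2.97% and 2.65% of all features in those lines. H358 had 1 such feature, PTX3, beside 1.43%, H23 had 1, the SAA2-SAA4 feature, beside 1.73%, and A549 had 0, beside 2.28%. Of these, CFB in PC9 had a bound of at least 1.86-fold lower, and the SAA2-SAA4 feature in H23 had none. In the other direction LCN2 in H23 was the only feature of the 8 in any line at least 2-fold higher with IkB_SR than with MiG, beside 3.22% of all features in H23. With 1 array per line and virus these counts have no replicate check, and the difference between lines was not tested.

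**Figure D3:**
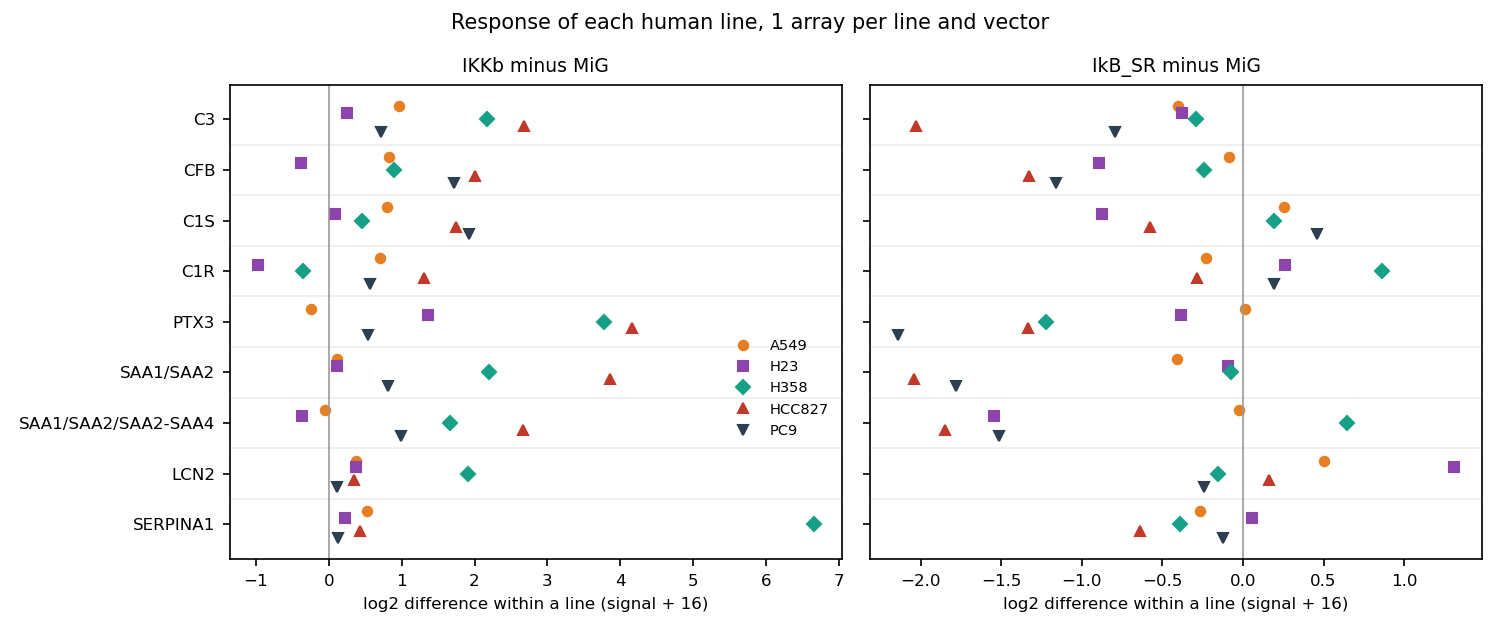
Log2 difference (log2 of signal plus 16) within each human line for 9 features, IKKb minus MiG at left and IkB_SR minus MiG at right, 1 point per line. HCC827 has the largest IKKb difference for C3, PTX3 and SAA1/SAA2, and H358 stands alone for SERPINA1 at 6.65, a value set partly by the 16 added to a MiG signal below the 40th percentile.

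Of 21 other complement components, 19 had a feature of their own. Of these, 6 passed the filter and 0 the limma test between IKKb and IkB_SR, with 2 at an unadjusted p under 0.05 and a median log2 fold change of -0.07. Over all features 0.911% passed this test and 14.1% had an unadjusted p under 0.05. Of 14 complement regulators, 10 had a feature of their own. All 10 passed the filter and 0 the test, with 5 at an unadjusted p under 0.05 and a median of 0.09. The shields that keep host cells from complement had log2 fold changes of -0.11 ± 0.09 for CD46, 0.28 ± 0.26 for CD55 and 0.34 ± 0.13 for CD59, whose limma adjusted p-values were 0.626, 0.672 and 0.243 (SE, n = 5 lines). Of 10 complement receptors, 6 passed the filter and 0 the test, with 1 at an unadjusted p under 0.05 and a median of -0.07. Among 20 other acute-phase proteins, 17 had a feature of their own. Of these, 9 passed the filter and 0 the test, with 1 at an unadjusted p under 0.05 and a median of -0.12. In the comparisons with MiG, human and LLC, 0 genes of these lists passed the limma test. At an unadjusted p under 0.05 there were 1 of 10 regulators for IKKb over MiG and 2 of 10 for IkB_SR over MiG. In LLC there were 2 of 5 regulators and 1 of 4 components, and every other list had 0. The shares over all features were 5.55% for IKKb over MiG, 4.34% for IkB_SR over MiG and 1.91% in LLC.

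Among 17 cytokines, receptors and factors known to drive acute-phase genes, 15 passed the filter and 1 was past the threshold between IKKb and IkB_SR, with a list median of 0.26 and 9 at an unadjusted p under 0.05, against 14.1% of all features. IL1A did not pass the filter and was not tested. It gave 779 in H358, 218 in HCC827 and 200 in PC9 with IKKb, and 46.4, 30.7 and 3.74 with IkB_SR. Its A549, H23 and MiG signals, and those with IkB_SR in HCC827 and PC9, were below the 40th percentile. In the comparisons with MiG 0 of the list passed the limma test, with unadjusted counts of 4 of 15 in each human comparison and 1 of 12 in LLC. Over all features the unadjusted shares were 5.55% for IKKb over MiG, 4.34% for IkB_SR over MiG and 1.91% in LLC. The gene past the threshold between IKKb and IkB_SR was IL6ST, the gp130 receptor subunit shared by the interleukin-6 family. It gave 7227 in A549, 12390 in H23, 7389 in H358 cells, 12439 in HCC827 and 11960 in PC9 with IKKb. With IkB_SR the values were 5248, 11259, 3010.2, 7198 and 6027, and with MiG 6895, 13293, 3935, 10541 and 9882. IKKb was above IkB_SR in every line, by a log2 fold change of 0.73 ± 0.13 (SE, n = 5 lines, limma adjusted p = 0.0238). Without H23 and without the H358 IKKb array it was 0.88 and 0.58 and still passed (limma adjusted p = 0.0166 and 0.0191). The call was lost in 6 of 16 alternatives. These were leaving out HCC827 or PC9, with adjusted p-values of 0.132 and 0.146, the mean of the probe sets, at 0.144 and a log2 fold change of 0.52, no intensity trend, at 0.112, only the compared arrays, at 0.232, and no replicate block, at 1.

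IL6 itself, at a log2 fold change of 2.09 ± 0.47 for IKKb over IkB_SR, just missed the threshold (SE, n = 5 lines, limma adjusted p = 0.0551). It was 1.32 without HCC827, 2.30 without H23 and 2.33 without the H358 IKKb array (limma adjusted p = 0.083, 0.112 and 0.0485), the last past the threshold. Its signal was 71.3 in A549, 111 in H23, 427 in H358 cells, 12460 in HCC827 and 953 in PC9 with IKKb. The IkB_SR values were 25.7, 36.9, 256, 325 and 190.5, and the MiG values 28.8, 83.2, 289.9, 1617 and 725. HCC827 again had the highest IKKb signal. The transducer STAT3 had a log2 fold change of 0.38 ± 0.11 and the factor CEBPB one of 0.28 ± 0.11, both short of the threshold (limma adjusted p = 0.124 and 0.283). Values for IL1B, NFKBIZ, CEBPD and the feedback inhibitor SOCS3 were 0.69, 0.26, 0.09 and -0.02, with adjusted p-values of 0.439, 0.668, 0.894 and 0.979. The SOCS3 sign turned with median centring.

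After each line's own mean was subtracted, the log2 signals of C3 and SAA1/SAA2 had a Pearson correlation of 0.96 over the 15 human arrays, and those of C3 and PTX3 one of 0.91. C3 and CFB had 0.90, and C1S and CFB 0.89. C1R and C1S had 0.50, and C1R and PTX3 had 0.08. These are descriptions over arrays that share lines and viruses. The genes most like C3 by this measure were KLF10 at 0.98, IKBKE at 0.97 and SAA1/SAA2. Those most like PTX3 were the chemokine gene CXCL2 at 0.98, ZMIZ2 at 0.97 and the adaptor gene TRAF1 at 0.97. CFB was most like the joint feature SRCAP/TMEM265 at 0.95, the chemokine gene CXCL8 at 0.94 and PFDN2 at 0.94, and the SAA2-SAA4 feature was most like DGAT2 at 0.94, IL6 at 0.94 and AKIP1/NUAK2 at 0.93. After C3, SAA1/SAA2 was nearest to KLF10 and TPRA1, both at 0.96. LCN2 was nearest to ADGRL3 at 0.94, PCMT1 at 0.93 and SMOX at 0.93. C1S was nearest to H2AC18/H2AC19 at 0.89, CFB and SEPHS2 at 0.89, and C1R to SLC37A3 at 0.91, TUBB2A/TUBB2B at 0.91 and IER2 at 0.90.

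In mouse LLC cells only IKKb and MiG were compared, with 2 arrays each. Nfkbia was at 12485 and 9722 with IKKb, against 5698 and 4645 with MiG. Of the 14 mouse features, 4 passed the filter, Saa3, C1s1, C1ra and C1ra/C1rb, and 0 were past the threshold, where 0.0232% of all 12956 features tested passed (limma, 3 features, all higher with IKKb). At an unadjusted p under 0.05 there was 1 of these 4, against 1.91% of all features. Epithelial markers were above the 40th percentile for 3 to 4 of 9 genes with IKKb and 5 to 6 with MiG, with sums of 9585 to 10062 and 12240 to 14712. Fibroblast markers were above it for 4 to 5 of 7 genes with both viruses, with sums of 10670 to 12404 with IKKb and 11070 to 20758 with MiG. The part of these markers in the results below was not tested.

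Saa3, the mouse serum amyloid made mainly outside the liver, had signals of 1621 and 663 with IKKb, against 69.9 and 70.1 with MiG. Both IKKb arrays were above both MiG arrays, which was so for 10.8% of all features. The log2 fold change was 3.62 ± 0.41 (SE, n = 2 each), or 12.3-fold, and did not pass over all features (limma adjusted p = 0.167). With all 4 arrays kept, Saa3 passed with the replicate number as a block. It did not pass with the other pseudocounts, scalings, filters, probe-set rule or prior. With any 1 of the 4 arrays left out the log2 fold change was 2.98 to 4.25. Those fits assume that the lone array varies like the others, so no p-value is read from them.

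C1s1, the mouse C1S counterpart, gave 455 and 151 with IKKb, against 183 and 66.6 with MiG, with overlapping groups and a log2 fold change of 1.13 ± 0.59 (SE, n = 2 each, limma adjusted p = 1). With 1 array left out it ranged from 0.38 to 1.88. C1ra gave 439 and 238 with IKKb, against 370 and 187 with MiG, and the joint C1ra/C1rb feature 55.0 and 75.2, against 53.7 and 84.2. Their log2 fold changes were 0.28 ± 0.41 and -0.05 ± 0.38. Array 1 of each virus was brighter than array 2 for C1s1 and C1ra. An exact permutation test on 2 against 2 arrays cannot go below p = 0.333, and the labels do not say whether the 2 arrays came from separate cultures.

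The other 10 mouse features lay below the 40th percentile on at least 3 of the 4 arrays. Ptx3 had 16.7 and 38.8 with IKKb, against 2.56 and 24.0 with MiG, Saa1 28.5 and 29.1, against 19.4 and 28.1, and Saa2 14.0 and 33.1, against 18.3 and 11.8. Cfb had 22.2 and 9.60 with IKKb, against 25.6 and 7.83 with MiG, and Lcn2 9.44 and 1.69, against 0.604 and 9.48. The 5 Serpina1 features ranged from 0.529 to 38.0 with IKKb and from 0.511 to 27.0 with MiG. At such signals no order of the groups can be read. No probe set named mouse C3 among those used here, so C3 was not analysed in LLC.

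**Figure D4:**
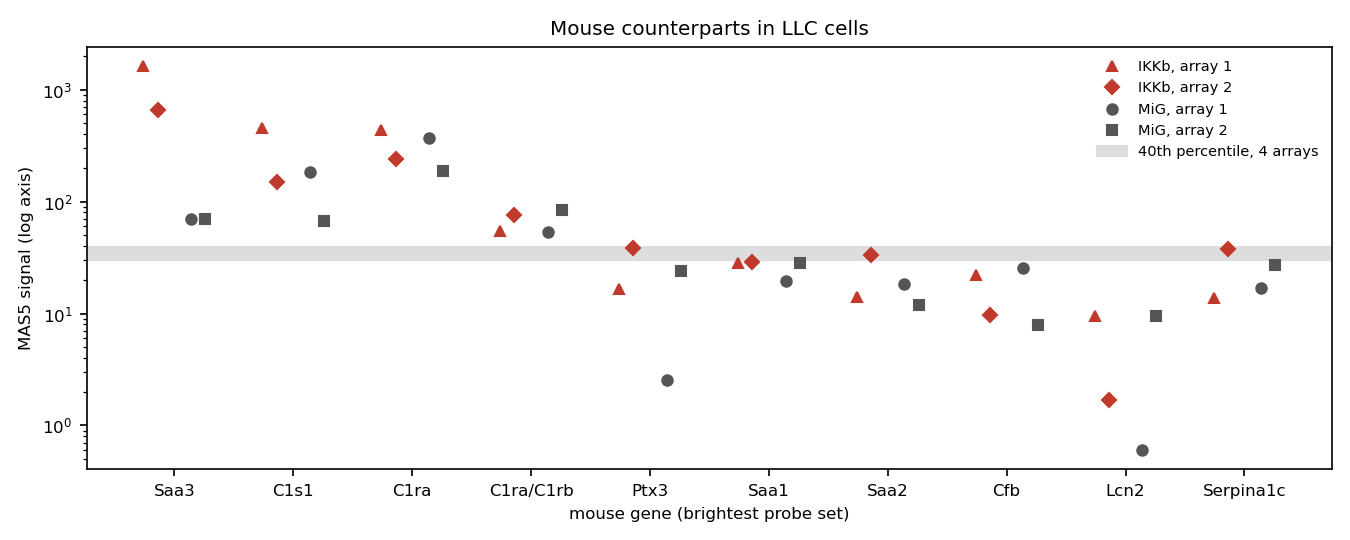
MAS5 signal (log axis) of 10 mouse features on 4 LLC arrays, 2 with IKKb and 2 with MiG, with the range of the 4 arrays' 40th percentiles as a grey band. Saa3 lies at 1621 and 663 with IKKb and near 70 with MiG, and the features from Ptx3 rightwards lie in or below the band.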

How the data were processed

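The deposited values are probe-set intensity on a linear scale, made by the authors with GCOS 1.4 and MAS5 per the submitters' processing notes, and the mean of each array without its lowest and highest 2% was 500. Such scaling hides any difference in total RNA. Probe sets were named through GEO's platform annotation (human: 41097 name 1 gene, 1801 several and 11777 none, mouse: 34958, 932 and 9211). The brightest probe set over all arrays stood for a gene, and each joint annotation was a feature of its own. Values were log2(signal + 16). A feature was kept if above the array's 40th percentile on 5 or more human arrays (16035 features) or 2 or more mouse arrays (12956).

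limma 3.58.1 in R 4.3.3 fitted all 15 human arrays, blocked by cell line since same-numbered arrays are of 1 line, and the 4 LLC arrays without one. eBayes used an intensity trend, tests were two-sided, and Benjamini-Hochberg adjustment ran over all kept features at a threshold of 0.05. The code was tested on simulated data. A fold is a lower bound where 1 array of a pair lies below its 40th percentile, which then stands for that signal, and values below the percentile have no order. Alternatives were other pseudocounts, scalings, filters, probe-set rules, priors and blocks, a fit on the compared arrays only, and leaving out lines or arrays. Promoters came from RefSeq (GRCh38.p14). Array number limits the precision.

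The members, the gene lists and the motifs were chosen with earlier results of these data known. All members are named, and of each list up to 4 genes past the threshold per comparison, with IL6, IL1B, NFKBIZ, CEBPB, CEBPD, STAT3, SOCS3, CD46, CD55 and CD59 always, and the 3 genes most correlated with each member. IL1A was added after its values were seen. Figures used matplotlib 3.10.9 in Python 3.11.15.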

Additional observations from a re-analysis of the deposited data

Results flagged for a closer look

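Among 54 groups of 5 values (the signals with each virus over the 5 lines, and the within-line differences), 7 had an end value far from the rest by Dixon's criterion, which chance meets in about 1 in 20 groups. The C1S signal with IkB_SR was 1046 in A549, far above the other lines. The PTX3 signal with IKKb was 12.5 in A549, far below the other lines. The SERPINA1 signal in HCC827 stood far above the other lines, at 3819 with IkB_SR and 5944 with MiG. H358 stood far above the other lines in 3 within-line log2 differences. These were LCN2, IKKb minus MiG, at 1.91, SERPINA1, IKKb minus IkB_SR, at 7.05, and SERPINA1, IKKb minus MiG, at 6.65. The SERPINA1 differences are on the log2(signal + 16) scale against signals below the 40th percentile, so their size depends on the 16 added.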

How the results depend on the processing

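C3, CFB and PTX3 kept their direction between IKKb and IkB_SR under every alternative run, but their calls did not hold throughout. The 3 members past the threshold became 1 with no filter (C3), 1 with the mean of the probe sets (CFB), 1 without the H358 IKKb array (CFB), and 0 with no intensity trend, with no replicate block, or with only the compared arrays. PTX3 alone was lost with a pseudocount of 1 or quantile normalisation, and CFB alone with a pseudocount of 64. Leaving out a line left 0 to 2. Over all features the 146 calls became 91 with no filter, 47 with the mean of the probe sets, 18 with no trend, 0 with no replicate block and 13 with only the compared arrays, and 21 to 127 with a line left out. At 0 calls without the block, 94 features had an unadjusted p under 0.05. Between IKKb and MiG, 1 feature passed with the mean of the probe sets. Between IkB_SR and MiG, 1 passed with only the compared arrays, and 0 to 8 with a line left out. The cause was not tested.

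Signs turned for values near 0. LCN2 between IKKb and IkB_SR was -0.072 without the H358 IKKb array and ranged from -0.13 to 0.62 with a line left out, and C1R from -0.29 to 0.41. C1R ranged from -0.019 to 0.55 between IKKb and MiG and from -0.015 to 0.27 between IkB_SR and MiG. C1S between IkB_SR and MiG was 0.14 with the mean of the probe sets and ranged from -0.25 to 0.082. SOCS3 was 0.017 with median centring, 0.014 with the mean of the probe sets, 0.21 without the H358 IKKb array, and ranged from -0.27 to 0.29. CEBPD was -0.14 with the mean of the probe sets and ranged from -0.24 to 0.27, and CD55 from -0.069 to 0.55.

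In LLC the numbers of the arrays are not known to pair them (arrays of the same number deviated from their group means with a correlation of 0.53 across 12956 features). With the replicate block 2 members passed, Saa3 and C1s1, and 236 features in all, against 3 without it. Those 3 became 0 with quantile normalisation, median centring, no filter, the 60th percentile filter, the mean of the probe sets or no trend. With 1 array left out, 1 to 2 members and 5 to 229 features passed. C1ra then ranged from -0.18 to 0.74 and C1ra/C1rb from -0.32 to 0.21. Signals near background limit every statement on A549 PTX3, H23 CFB, the serum amyloid features outside HCC827 and PC9, and most mouse features. They also limit those on C1S outside A549, the brightest SERPINA1 probe set outside HCC827, and the H358 LCN2 signals with IkB_SR and MiG.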
